A study of Canis lupus familiaris with 6 samples.

Results

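The genes described here encode integrin subunits and the focal adhesion proteins that tie integrins to actin and to signalling, measured by RNA sequencing in canine melanoma cells. Members were taken by symbol: every integrin alpha gene whose name goes on with a digit or with V, X, E, M or L, the integrin beta genes ITGB1 to ITGB8, and a list of adhesion proteins (talins, kindlins, the ILK complex, kinases and scaffolds, actin linkers and tensins). That gave 42 of the 30951 gene rows, made up of 16 alpha subunits, 8 beta subunits and 18 adhesion proteins, each with 1 row. LIMS1, also on the list, was not analysed here. Of the 42 members, 37 had enough counts to be tested, among 12270 tested genes in all.

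The study asked how loss of podoplanin changes gene expression in the cell lines CMM2 and CMM12. Podoplanin is a heavily glycosylated membrane protein whose short cytoplasmic tail contacts the actin cortex through ezrin and moesin. For each line there was 1 control library, labelled wild type, and 1 library from each of 2 podoplanin knockout (KO) lines, KO 1 and KO 2, which makes 6 libraries. All 6 are of lines labelled canine melanoma, and the labels name no treatment, promoter or edited sequence and do not say whether a KO line is 1 clone. The labels do not state separate cultures for the libraries, so how far the spread covers differences between cultures is not known. Each control is 1 library. For KO against control within a line, the spread behind the p-values and standard errors comes from the KO pairs of both cell lines, fitted together. A standard error in one line therefore also carries the difference between KO 1 and KO 2 in the other line. KO 1 and KO 2 are different KO lines and not repeats of the same cells. In the additive model used for some comparisons, differences of the KO effect between the lines also add to the spread. When either control is left out of that model, the difference between the lines comes from the KO libraries alone. Leaving out the CMM2 control and leaving out the CMM12 control are therefore nearly the same comparison and not separate checks.

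Integrins are membrane receptors built from 1 alpha and 1 beta subunit, and the pair decides which matrix protein is bound: collagens, laminins, or proteins that carry the RGD motif such as fibronectin and vitronectin. Talin and kindlin bind the beta tail and switch the receptor on, the ILK–PINCH–parvin complex and vinculin, zyxin and alpha-actinin link it to actin, and FAK (PTK2) and SRC phosphorylate the scaffolds paxillin, BCAR1 and NEDD9. In melanoma, integrins that contain the alpha-V or beta-3 subunit are known for their part in invasion.

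The libraries held 9732925 to 11807824 counts. PDPN, the targeted gene, stood at 20.2 CPM (counts scaled to the TMM-adjusted library size) in the CMM2 control and at 27.6% of it in both KO libraries, and at 87.8 CPM in the CMM12 control and at 17.4% and 11.4% of it in KO 1 and KO 2. Of 8 melanocyte markers, MITF was present in every library (10.7 to 21.7 TPM), TYRP1 only in CMM12 (2.09 to 3.45 TPM), PMEL at 0.41 to 1.82 TPM, and SOX10, TYR, DCT, MLANA and S100B stayed at or under 0.21 TPM. The leukocyte markers PTPRC and CD3E were at 0 in all 6 libraries, CORO1A stood at 5.81 to 8.39 TPM, and a row named CD79A, whose identity was not checked, stood at 3150 to 4542 TPM in all of them. Fibroblast markers summed to 249 to 559 TPM in CMM2 and 155 to 356 TPM in CMM12. Most of the CMM2 sum was COL1A1 (229 to 520 TPM), with PDGFRA at 19.2 to 36.7 TPM. There PDGFRB stayed at or under 1.42 TPM, LUM and DCN at or under 0.59 TPM, and THY1 at 0. In CMM12 THY1 stood at 115 to 313 TPM, COL1A1 at 1.33 to 177 TPM and PDGFRA at 10.2 to 20.8 TPM. LUM, DCN and PDGFRB stayed at or under 10.7 TPM there. Epithelial and endothelial markers summed to at most 2.42 TPM. CMM2 KO 2 stood apart from its line: among genes with a mean of 10 CPM there, 6.02% differed at least 2-fold from the control, against 0.723% for KO 1. Among the 25 members at that level, 6 differed at least 2-fold from the control in KO 2 (ITGA3, ITGA6, ITGAV, ITGB3, ITGB5 and PXN) and 1 in KO 1 (ITGB5), and results in CMM2 are therefore also given by library. In CMM12 those shares of all genes were 5.09% and 5.03%. In bulk RNA, a smaller number of expressing cells and less RNA per cell cannot be told apart.

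Levels of different genes are compared in TPM, the deposited unit that is scaled for transcript length, and values within a line are given in the order control, KO 1, KO 2. The fibronectin receptor subunit ITGA5 was the most abundant alpha subunit in every library, with 32.2% to 45.9% of the summed alpha TPM. ITGA5 stood at 177, 236 and 319 TPM in CMM2 and at 217, 141 and 229 TPM in CMM12, so the lines overlapped. ITGA3, which binds laminins, held 9.26% to 28.9% of the alpha sum, at 157, 179 and 75 TPM in CMM2 and 51.5, 95.3 and 114 TPM in CMM12. CMM2 KO 2 and the CMM12 control were the low ITGA3 libraries of their lines. ITGAV, the alpha subunit shared by the vitronectin receptors, took 5.93% to 10.5% of the alpha sum in CMM2, 26.9% in the CMM12 control and 11.5% and 14.6% in the CMM12 KO libraries. The collagen receptor ITGA1, the collagen and laminin receptor ITGA2, and the laminin receptors ITGA6 and ITGA7 averaged 37.4 to 46.0 TPM each over the 6 libraries.

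Among beta subunits ITGB1, the common partner of the collagen, laminin and fibronectin receptors, made up 73.8% to 88.8% of the summed beta TPM. ITGB3, the partner of ITGAV and of the platelet subunit ITGA2B, followed with 7.95% to 19.7%, and ITGB5, another partner of ITGAV, with 1.29% to 6.64%. Summed over subunits, alpha transcripts came to 439 to 695 TPM and beta transcripts to 542 to 991 TPM, an alpha to beta ratio of 0.701 to 1.03. The order ITGB1, ITGB3, ITGB5 held in each of the 6 libraries.

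**Figure D1:**
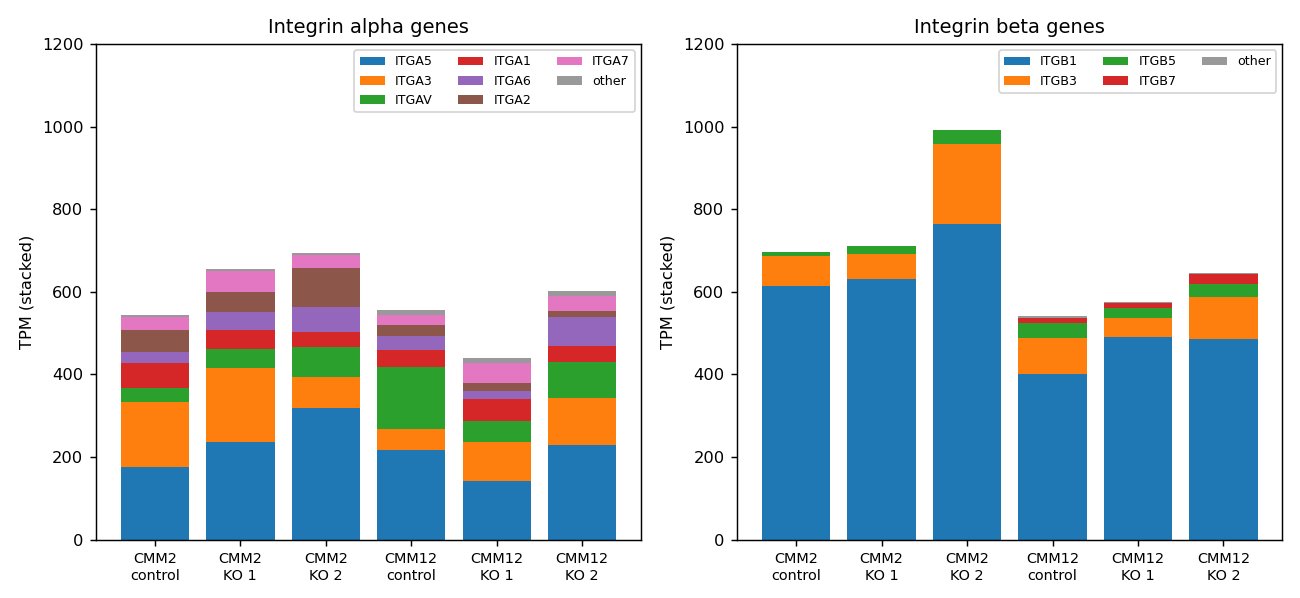
Stacked TPM of the integrin alpha genes (left) and beta genes (right) in each of the 6 libraries, with the less abundant genes summed as other. ITGA5 is the widest alpha band in every library and ITGB1 makes up 73.8% to 88.8% of the beta sum, while an ITGB7 band is visible only in CMM12.

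Of the adhesion proteins, the actin cross-linker ACTN1 had the highest mean level of all members (689 TPM), ahead of ITGB1 (564 TPM). ACTN4, its close relative, averaged 291 TPM, the actin-associated LIM protein ZYX 264 TPM, the pseudokinase ILK 175 TPM, the integrin activator TLN1 165 TPM and VCL, which binds talin and actin, 138 TPM. With ITGA5 (220 TPM), ITGA3 (112 TPM) and ITGB3 (93.5 TPM), these were the 10 most abundant members. ZYX ran from 198 to 313 TPM and ILK from 151 to 255 TPM, and for both the lines overlapped. At the other end, ITGA8 and ITGAL had 0 counts in all 6 libraries, and ITGA4, ITGAM and the leukocyte subunit ITGB2 had at most 4 counts in any, so these 5 were not tested. The platelet subunit ITGA2B, the tenascin receptor ITGA9 and the epithelial subunit ITGB6, a partner of ITGAV, were tested but stayed at or under 1.18 TPM in every library. A count of 0 allows up to 3 counts, which is 0.259 to 0.294 CPM at these depths and covers counting error only.

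The span over the 6 libraries differed between members. For the 25 members at 10 CPM or more in every library, the highest library lay a median of 2.23 times above the lowest, against 1.77 times over the 7568 genes at that level. ACTN4, at 682 to 884 CPM, TNS2 (1.37 times), a tensin that links integrins to actin, and the kindlin FERMT2 (1.39 times) had the narrowest spans of these 25. ITGA2 (7.13 times), ITGB3 (4.35 times), PXN (4.32 times) and ITGAV (4.06 times) had the widest. CMM2 KO 2 was the highest library for ITGA2 and ITGB3.

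Between the lines, CMM12 differed from CMM2 in collagen-binding alpha subunits, in several beta subunits and in the talin, paxillin and FAK–SRC genes. In edgeR's quasi-likelihood test with Benjamini-Hochberg adjustment over all tested genes, 13 of 37 members differed at an adjusted p under 0.05, beside 25.8% of all genes tested. In CMM12, 9 members were higher (ITGA10, ITGA11, ITGB4, ITGB7, ITGB8, PARVA, PTK2, SRC and NEDD9; 14.6% of all genes were higher) and 4 were lower (ITGA2, ITGB1, TLN1 and PXN; 11.2% of all genes were lower). DESeq2 called those 13 and 4 more, FERMT1 and TNS3 as higher and VCL and ACTN1 as lower, beside 32.2% of all genes. Without CMM2 KO 2, edgeR called 14 members, 10 of them the same, with ACTN1, FERMT1, ITGA3 and ITGA9 gained and ITGB8, PARVA and PTK2 lost, beside 3096 of 12211 genes called in that fit. All libraries of one line lay above all of the other for 18 of 37 members, beside 46.1% of all genes. The median log2 fold change was 0.13 over the members, also with ITGA11 at its bound, and 0.04 over all genes.

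**Figure D2:**
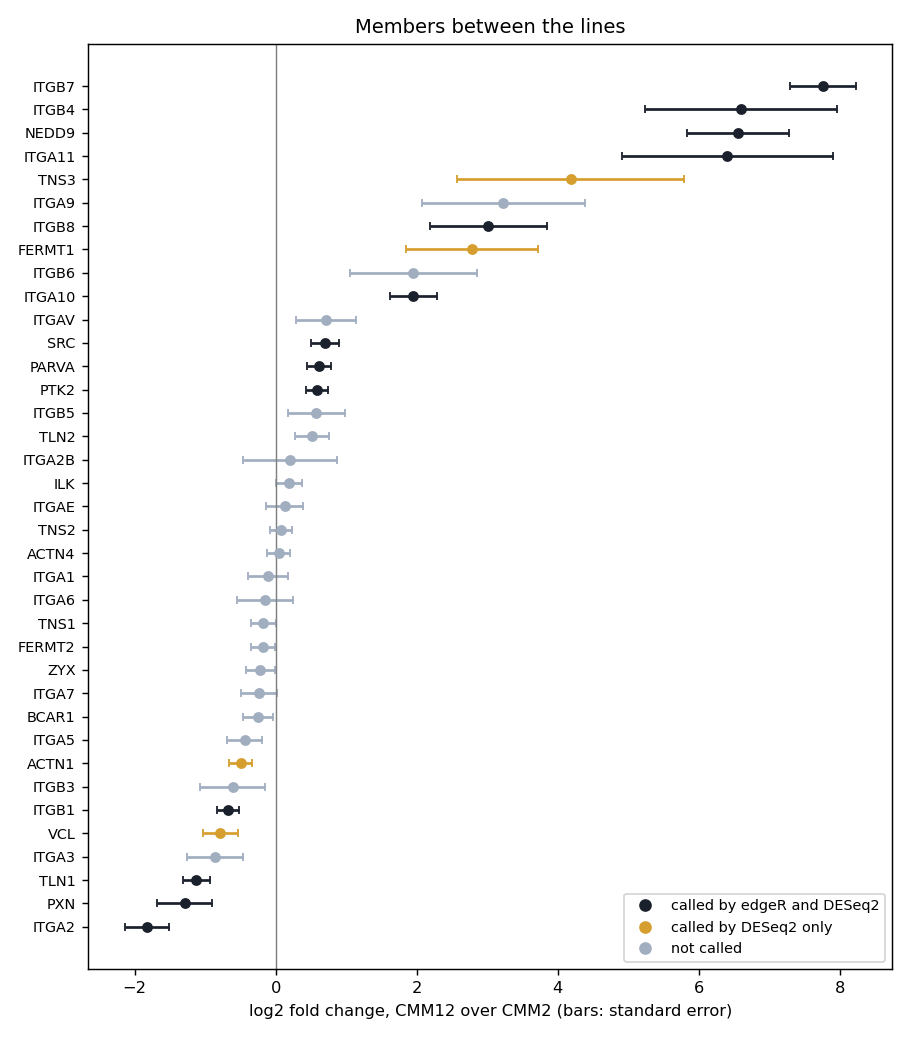
Log2 fold change of the 37 tested members in CMM12 over CMM2 from edgeR's additive model, with bars of 1 standard error, coloured by the tests that called them. ITGB7 at 7.76 and ITGA2 at −1.83 are the ends of the order; the values of ITGB7, ITGB4, NEDD9 and ITGA11 rest on CMM2 counts of 0 to 2 per library and depend on the model's prior count.

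The collagen-binding alpha subunits split in direction. ITGA2 stood at 185, 174 and 318 CPM in CMM2 and at 76.7, 69.5 and 44.5 CPM in CMM12. Every CMM2 library lay above every CMM12 library, and the log2 fold change was −1.83 (SE 0.31, edgeR adjusted p = 0.0070). ITGA10, a collagen receptor known from cartilage, went the other way, at 4.87, 6.03 and 11.4 CPM in CMM2 and 29.9, 25.5 and 28.8 CPM in CMM12. The lines did not overlap, with a log2 fold change of 1.95 (SE 0.33, edgeR adjusted p = 0.0068). ITGA11, a collagen receptor of mesenchymal cells, had 0 counts in all 3 CMM2 libraries and 7, 10 and 14 counts in CMM12, at least 3.36-fold higher against a floor of 3 counts per library. Its edgeR adjusted p was 0.032, and 0.062 to 0.11 when the CMM2 control, CMM2 KO 1 or any one CMM12 library was left out. ITGA1, the remaining member of this class, overlapped between the lines at 36.0 to 69.0 CPM in CMM2 and 36.6 to 61.6 CPM in CMM12. The ITGA2 and ITGA10 calls held in all 17 alternative analyses.

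ITGB1 was the abundant beta subunit that differed. It stood at 1492, 1512 and 1803 CPM in CMM2 and at 856, 1139 and 1031 CPM in CMM12, with no overlap. The log2 fold change was −0.68 (SE 0.16, edgeR adjusted p = 0.019), and the call was lost without CMM12 KO 2 (adjusted p = 0.071). It was also lost without the CMM2 control (0.10) or the CMM12 control (0.096), which both leave the KO libraries to give the line difference. ITGB7, which pairs with ITGA4 or ITGAE in leukocyte homing receptors, had 2, 1 and 1 counts in CMM2 and 274, 257 and 421 counts in CMM12. Summed over 3 libraries that was 4 against 952 counts, a ratio of normalised counts of 236 (95% counting interval 91.8 to 868), and edgeR's adjusted p was 2.9e-04. Of the partners of ITGB7, ITGA4 had at most 2 counts in CMM12, and ITGAE stood at 7.57 to 8.71 CPM there and at 6.82 to 8.50 CPM in CMM2. ITGB7 made up at most 0.014% of the beta TPM in CMM2 and 2.17% to 3.73% in CMM12, and its call held in all 17 alternatives.

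ITGB4 and ITGB8 were also higher in CMM12, at low counts. ITGB4, the laminin receptor subunit that pairs with ITGA6 and anchors hemidesmosomes, had 0, 1 and 0 counts in CMM2 and 205, 3 and 9 counts in CMM12. Most of that difference was in the CMM12 control, and the 2 CMM12 KO libraries lay at 0.274 and 0.881 CPM. The log2 fold change was 6.60 (edgeR adjusted p = 0.013). Without the CMM2 control, which had 0 counts, it was 3.37 and missed the threshold (adjusted p = 0.10). In that fit the CMM12 control no longer bears on the line difference, which comes from the KO libraries alone. Without the CMM12 control ITGB4 no longer passed the filter on low counts. ITGB8, a partner of ITGAV that binds latent TGF-beta, had 1, 4 and 3 counts in CMM2 and 10, 47 and 10 counts in CMM12. Its log2 fold change was 3.02 (SE 0.83, edgeR adjusted p = 0.035), and leaving out any one library other than CMM12 KO 2 gave an adjusted p of 0.081 to 0.17. ITGAV, ITGB3, ITGB5, ITGA5 and the 3 laminin-binding alpha subunits overlapped between the lines and were not called.

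Of the integrin activators, TLN1, which binds the beta tail and actin, stood at 1619, 1732 and 1543 CPM in CMM2 and 578, 969 and 729 CPM in CMM12. The lines did not overlap, the log2 fold change was −1.13 (SE 0.19, edgeR adjusted p = 0.0072), and the call held in all 17 alternatives. Its paralog TLN2 overlapped, at 27.6 to 48.9 CPM in CMM2 and 46.2 to 60.5 CPM in CMM12. The epithelial kindlin FERMT1 had 4, 1 and 23 counts in CMM2 and 95, 67 and 39 counts in CMM12, called by DESeq2 (adjusted p = 0.018) and not by edgeR (adjusted p = 0.064; 0.0042 without CMM2 KO 2, the CMM2 library with the most counts). FERMT2, the widespread kindlin, lay at 94.4 to 131 CPM with no separation of the lines.

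In the ILK complex, PARVA, which binds ILK and actin, stood at 36.0, 52.0 and 51.5 CPM in CMM2 and at 64.3, 64.4 and 81.6 CPM in CMM12. The log2 fold change was 0.61 (SE 0.17, edgeR adjusted p = 0.039), and leaving out any one library other than CMM12 KO 1 gave an adjusted p of 0.055 to 0.17. ILK itself overlapped, at 217 to 228 CPM in CMM2 and 203 to 322 CPM in CMM12.

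Both kinases were higher in CMM12, and the scaffolds differed in direction. PTK2, the focal adhesion kinase, stood at 196, 205 and 183 CPM in CMM2 and 284, 326 and 268 CPM in CMM12 (log2 fold change 0.59, SE 0.16, edgeR adjusted p = 0.031). SRC stood at 42.1, 50.7 and 66.9 CPM in CMM2 and 87.2, 94.3 and 74.8 CPM in CMM12 (log2 fold change 0.70, SE 0.20, edgeR adjusted p = 0.041). For both kinases all CMM12 libraries were above all CMM2 libraries. The scaffold PXN was lower in CMM12, at 248, 230 and 91.9 CPM in CMM2 against 57.3, 91.8 and 82.0 CPM, with CMM2 KO 2 next to the CMM12 range (log2 fold change −1.29, SE 0.39, edgeR adjusted p = 0.0455). Leaving out any single library ended the PTK2 call (adjusted p 0.059 to 0.097), leaving out any but CMM2 KO 2 ended the SRC call (0.052 to 0.18), and the same held for PXN (0.074 to 0.21). BCAR1, a docking protein phosphorylated by SRC, overlapped at 152 to 266 CPM. Its relative NEDD9 had 2, 0 and 0 counts in CMM2 and 205, 11 and 19 counts in CMM12, again with most of the difference in the CMM12 control. Over the 3 libraries this was 2 against 235 counts (ratio 116, 95% counting interval 31.9 to 967; edgeR adjusted p = 0.0017, and 0.053 without the CMM12 control).

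**Figure D3:**
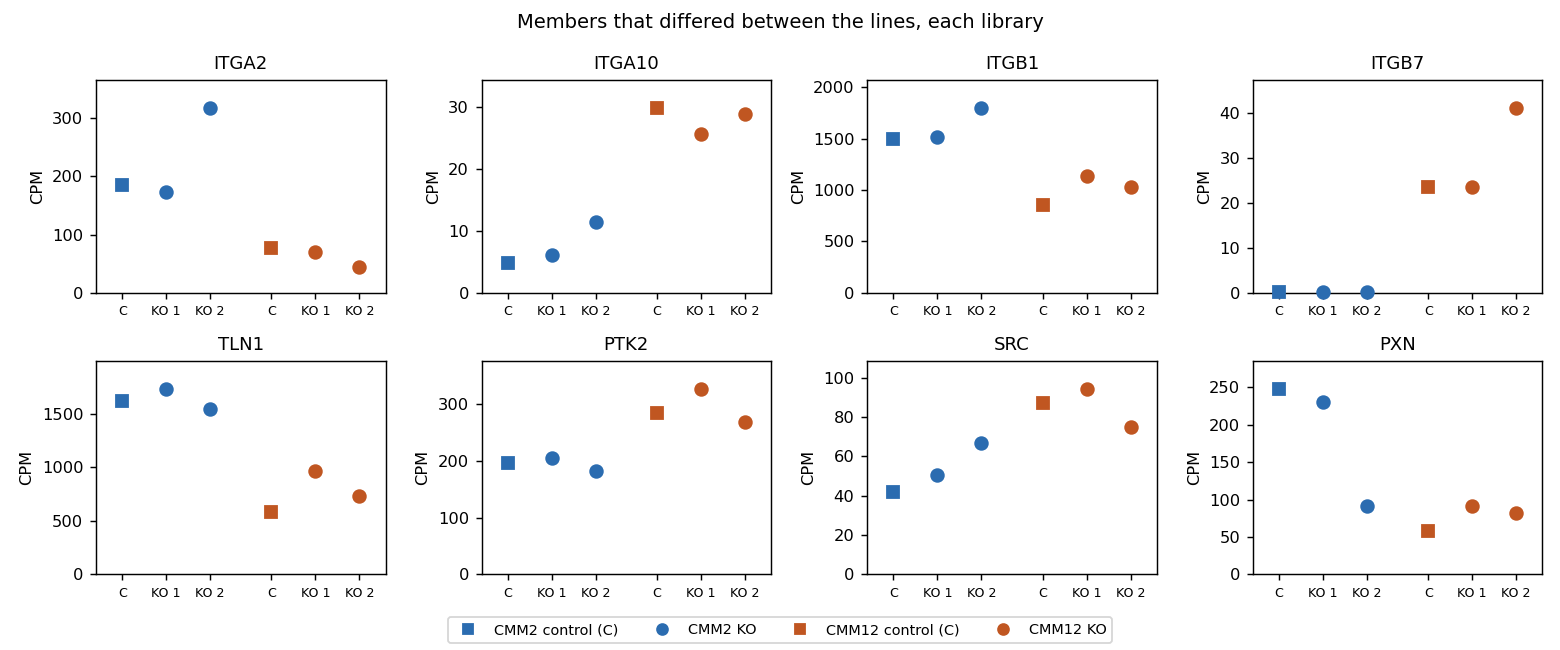
CPM of 8 members called between the lines, 1 point per library, squares for controls and circles for KO libraries, CMM2 in blue and CMM12 in orange, each axis starting at 0. In all 8 panels the points of the lines do not overlap; for PXN the gap is between 91.9 CPM in CMM2 KO 2 and 91.8 CPM in CMM12 KO 1.

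The actin linkers VCL and ACTN1 were called as lower in CMM12 by DESeq2 and just missed edgeR's threshold. VCL stood at 486, 492 and 576 CPM in CMM2 and 222, 448 and 250 CPM in CMM12 (log2 fold change −0.79, SE 0.25, edgeR adjusted p = 0.054; DESeq2 adjusted p = 0.012), and edgeR called it without CMM12 KO 1, the high CMM12 library (0.013), without the filter on low counts, and in the bias-adjusted and robust fits (adjusted p 0.024 to 0.047). ACTN1 stood at 1963, 2202 and 1815 CPM in CMM2 and 1247, 1550 and 1448 CPM in CMM12 (log2 fold change −0.50, SE 0.16, edgeR adjusted p = 0.053; DESeq2 adjusted p = 0.0052), with an edgeR adjusted p of 0.033 without CMM2 KO 2. ACTN4 and ZYX overlapped. Among the tensins, TNS1 and TNS2 overlapped between the lines, and TNS3 had 65, 0 and 0 counts in CMM2 against 88, 77 and 168 counts in CMM12. DESeq2 called TNS3 between the lines (adjusted p = 0.0053) and edgeR did not (adjusted p = 0.095). Without the CMM2 control edgeR's adjusted p was 0.010, and without the CMM12 control 0.0094. Both of these fits take the line difference from the KO libraries alone.

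With podoplanin loss, taken across both lines, no member passed in edgeR, and the scaffold NEDD9 fell in DESeq2. Against their own controls, 0 of 37 members were called at an adjusted p under 0.05 in edgeR, as did 0% of all genes tested, and at an unadjusted p under 0.05 there were 2 members (ITGB4 and NEDD9), beside 4.03% of all genes. DESeq2 called 1 member, NEDD9, beside 0.0733% of all genes. For 7 of 37 members every KO library lay on one side of its own control, beside 21.1% of all genes: ITGB1, ITGB8, PARVA, VCL, TNS1 and TNS2 above it and NEDD9 below it. The median log2 fold change was 0.21 over the members and 0.01 over all genes.

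NEDD9, a scaffold of the BCAR1 family known for its part in melanoma cell migration, stood at 17.7 CPM in the CMM12 control and at 1.00 and 1.86 CPM in CMM12 KO 1 and KO 2, which is 5.67% and 10.5% of the control. In CMM2 it had 2 counts in the control and 0 in both KO libraries, all at or under the floor of 3 counts. NEDD9 therefore has a measurable difference in CMM12 alone, where the control is 1 library. Across lines DESeq2 gave a log2 fold change of −3.61 (SE 0.86, adjusted p = 0.041) and edgeR −3.66 (SE 0.57, adjusted p = 0.84).

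None of the 6 members above their controls in every KO library passed. TNS1, a tensin that ties integrins to actin in fibrillar adhesions, stood at 84.8, 127 and 106 CPM in CMM2 and 76.6, 86.2 and 117 CPM in CMM12 (log2 fold change 0.43, SE 0.19, edgeR adjusted p = 0.99). VCL lay at the values given above, with a log2 fold change of 0.39 (SE 0.27) and its widest ratio to the control, 2.02, in CMM12 KO 1, and PARVA at 0.35 (SE 0.19). ITGB1 lay at 0.25 (SE 0.17) and TNS2 at 0.24 (SE 0.17), both on the log2 scale. ITGB8, at 1 to 47 counts, lay at 1.61 (SE 0.92), and at 0.72 without CMM12 KO 1; in CMM12 KO 2 it had 10 counts, as in the control. No adjusted p of these was under 0.98 in edgeR.

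**Figure D4:**
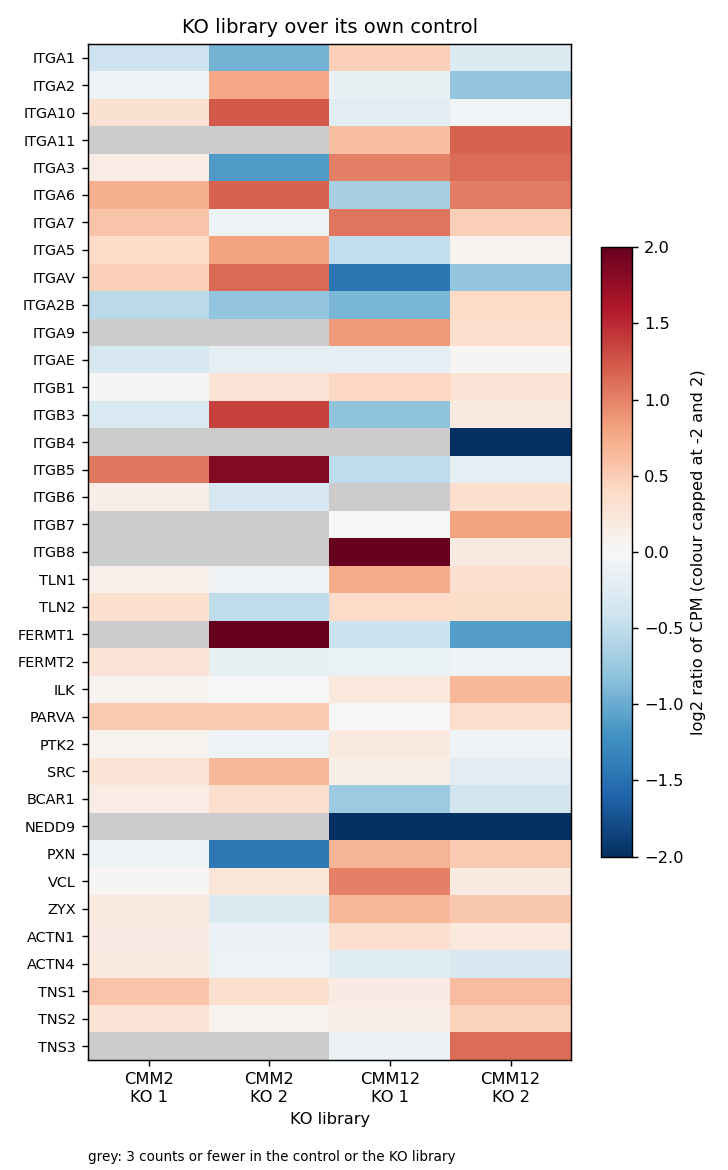
Log2 ratio of CPM in each KO library (columns) over the control of its own line for the 37 tested members (rows, by role), with colour capped at −2 and 2 and grey where either library had 3 counts or fewer. ITGB5 and ITGAV are red in both CMM2 columns and blue in both CMM12 columns, NEDD9 is dark blue in both CMM12 columns, and ITGA3 is blue in CMM2 KO 2 and red in both CMM12 columns.

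In CMM2 alone, among members with a mean of at least 1 CPM, the integrin subunits with both KO libraries on one side of the control by the most were ITGB5, ITGA6, ITGAV and ITGA10, all above it. In edgeR 0 of 37 members passed, as did 0% of all genes, and 2 members (ITGB5 and TNS3) had an unadjusted p under 0.05, beside 1.9% of all genes. DESeq2 called 1 member, TNS3, beside 0.0489% of all genes. Both KO libraries lay on one side of the control for 20 of 37 members, beside 61% of all genes. The median log2 fold change over the members was 0.14, or 0.05 with those at 0 in one group at their bound, and 0.00 over all genes.

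ITGB5, a beta subunit of vitronectin receptors, stood at 19.2 CPM in the CMM2 control and at 39.8 and 68.3 CPM in KO 1 and KO 2. The log2 fold change was 1.49 (SE 0.41, unadjusted p = 0.0091, edgeR adjusted p = 1). ITGAV, its partner, stood at 104, 145 and 228 CPM (log2 fold change 0.85, SE 0.41). ITGA6 stood at 107, 174 and 241 CPM (0.96, SE 0.65) and ITGA10 at 4.87, 6.03 and 11.4 CPM (0.84, SE 0.47). In each of these 4, KO 2, the library that stood apart, was the highest and KO 1 lay between it and the control. Without KO 2 the log2 fold changes were 1.05 for ITGB5, 0.48 for ITGAV, 0.71 for ITGA6 and 0.30 for ITGA10. The fibroblast markers COL1A1, at 229, 391 and 520 TPM, and PDGFRA, at 19.2, 25.0 and 36.7 TPM, had the same order in these libraries, and their part in the integrin differences was not tested. ITGB3 did not share that pattern, at 183, 148 and 471 CPM, nor did ITGA3, at 483, 537 and 222 CPM.

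TNS3, a tensin that binds integrin tails and actin, had 65 counts in the CMM2 control and 0 in both KO libraries. That is at least 23.7-fold lower in KO 1 and at least 21.9-fold lower in KO 2 against a floor of 3 counts per library. DESeq2 called the difference (adjusted p = 0.0059), edgeR did not (unadjusted p = 4.2e-04, adjusted p = 1), and it rests on the 1 control library. In CMM12, TNS3 stood at 7.59, 7.02 and 16.4 CPM, so all 3 libraries there held it.

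In CMM12 alone, ITGB4, NEDD9 and ITGAV were lower in both KO libraries and ITGA3 higher, and none of them passed. In edgeR 0 of 37 members were called, beside 0.00815% of all genes, and 3 (ITGAV, ITGB4 and NEDD9) had an unadjusted p under 0.05, beside 5.99% of all genes. DESeq2 called 0 of 37, beside 0.367% of all genes. Both KO libraries lay on one side of the control for 26 of 37 members, beside 69.8% of all genes. The median log2 fold change was 0.18 over the members and 0.02 over all genes.

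ITGB4 had 205 counts (17.7 CPM) in the CMM12 control and 3 and 9 counts in KO 1 and KO 2. Its log2 fold change was −4.92 (SE 0.85, edgeR adjusted p = 0.44; DESeq2 adjusted p = 0.061). Without the filter on low counts edgeR gave an adjusted p of 0.038. ITGA6, which ITGB4 pairs with, stood at 123, 78.2 and 252 CPM, with KO 1 below and KO 2 above the control. NEDD9 lay at −3.62 (SE 0.67, edgeR adjusted p = 0.60) at the levels given above. These large differences rest on the 1 CMM12 control library being high.

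ITGAV stood at 421 CPM in the CMM12 control and at 154 and 245 CPM in KO 1 and KO 2, 1.72 to 2.73 times lower. The log2 fold change was −1.08 (SE 0.38, edgeR adjusted p = 0.80). ITGA3 was the reverse, at 138, 278 and 299 CPM (log2 fold change 1.07, SE 0.51, edgeR adjusted p = 0.84). ITGB8 had 10, 47 and 10 counts (1.60, SE 1.20), a difference carried by KO 1. Of the 26 members with both KO libraries on one side, beside 69.8% of all genes, 16 lay above the control and 10 below it. Among those above, ITGA7 stood at 84.8, 178 and 117 CPM (0.80, SE 0.39), TLN1 at 578, 969 and 729 CPM (0.56, SE 0.29) and ZYX at 201, 316 and 292 CPM (0.60, SE 0.29). VCL lay at 0.65 (SE 0.38) and PXN at 0.60 (SE 0.52), and none of these 5 passed. Fibroblast markers moved among the same libraries in both directions: COL1A1 stood at 177, 1.33 and 19.3 TPM and LUM at 10.7, 0.27 and 0 TPM, while THY1 stood at 115, 131 and 313 TPM and PDGFRA at 10.2, 11.5 and 20.8 TPM. Their part in the integrin differences was not tested.

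**Figure D5:**
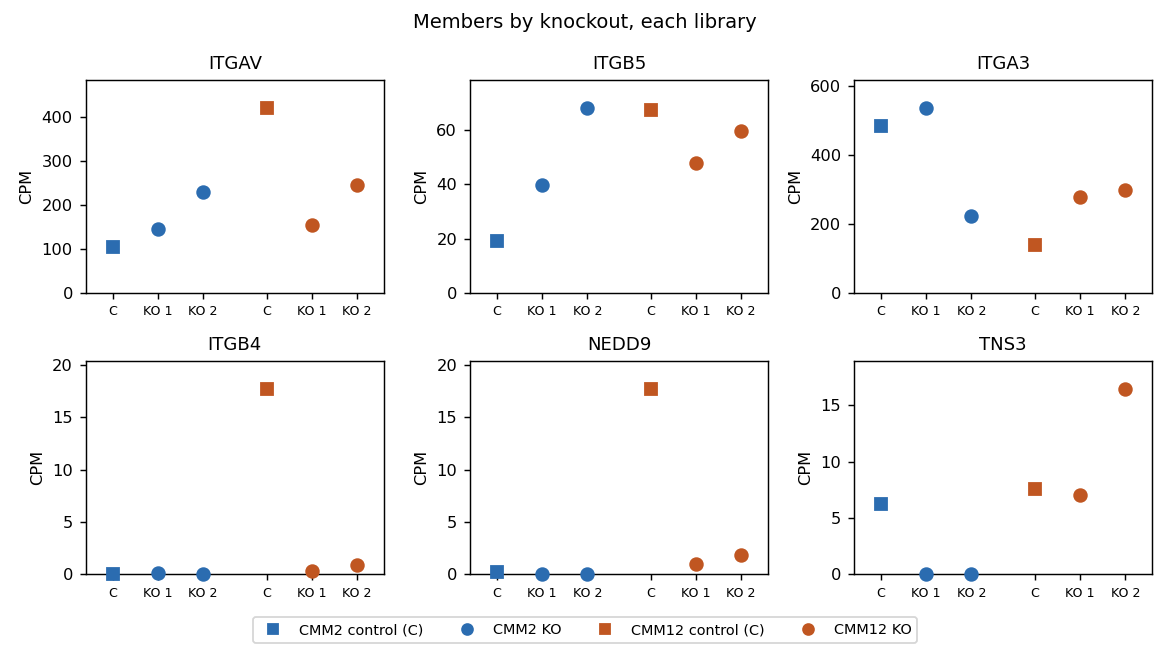
CPM of 6 members by KO status, 1 point per library, squares for controls and circles for KO libraries, CMM2 in blue and CMM12 in orange, each axis starting at 0. ITGAV and ITGB5 have their lowest CMM2 value and their highest CMM12 value in the controls, ITGB4 and NEDD9 are high only in the CMM12 control (17.7 CPM each), and TNS3 is at 0 in both CMM2 KO libraries.

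The KO differences of ITGAV and ITGB5 ran in opposite directions in the lines, without passing the test of that difference. In edgeR 0 of 37 members passed, as did 0% of all genes, and 3 (ITGAV, ITGB5 and TNS3) had an unadjusted p under 0.05, beside 3.84% of all genes. DESeq2 called 1 member, TNS3 (log2 difference 9.17, SE 2.00, adjusted p = 0.0061), beside 0.179% of all genes. That value rests on 0 counts in both CMM2 KO libraries and depends on the model, with 1.52 to 10.2 over the alternatives. Both KO libraries lay above the control in one line and below it in the other for 5 of 37 members, ITGA10, ITGAV, ITGB5, BCAR1 and PXN, beside 21.2% of all genes. For ITGAV the log2 difference, CMM12 minus CMM2, was −1.92 (SE 0.56, unadjusted p = 0.012) and for ITGB5 −1.82 (SE 0.54, unadjusted p = 0.013), with an edgeR adjusted p of 1.00 for both. Without CMM2 KO 2 the log2 differences were −1.55 for ITGAV and −1.38 for ITGB5. In ITGB5 the CMM12 libraries stood at 67.6, 47.7 and 59.7 CPM. CMM2 KO 1, at 39.8 CPM, lay below all of them and CMM2 KO 2, at 68.3 CPM, just above all of them. The CMM2 control, at 19.2 CPM, lay furthest from them.

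The genes around these members were counted from lists that also hold integrin ligands, other adaptors, kinases and GTPases, and membrane partners. Of 24 tested matrix ligands, edgeR called 5 higher and 4 lower in CMM12, beside 14.6% and 11.2% of all genes, with a median log2 fold change of 0.32 against 0.04 over all genes, and their median KO difference was 0.65 in CMM2 and −0.22 in CMM12. NID1, a basement membrane linker, had 2, 0 and 0 counts in CMM2 and 825, 446 and 513 counts in CMM12, and TNC, the adhesion-modulating tenascin-C, had 0, 1 and 0 counts in CMM2 against 152, 297 and 1084 counts. THBS1 (thrombospondin-1) stood at 77.5, 89.1 and 125 CPM in CMM2 and 323, 391 and 355 CPM in CMM12 (edgeR adjusted p = 0.0011). With podoplanin loss DESeq2 called FN1, fibronectin, the main ligand of the ITGA5 and ITGB1 pair. It stood at 1422, 2145 and 2332 CPM in CMM2 and 1865, 3165 and 3783 CPM in CMM12, above the control in all 4 KO libraries (log2 fold change 0.78, SE 0.16, DESeq2 adjusted p = 0.0037; edgeR adjusted p = 0.99). ITGA5 lay above its control in both CMM2 KO libraries (log2 fold change 0.62, SE 0.34) and on both sides of it in CMM12 (−0.19, SE 0.33).

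FBN1, fibrillin-1, an RGD protein bound by ITGAV and ITGA5 receptors, stood at 488, 870 and 1339 CPM in CMM2 and 669, 230 and 304 CPM in CMM12. It lay above the control in both KO libraries of CMM2 and below it in both of CMM12, and DESeq2 called the difference between the lines (log2 −2.50, SE 0.48, adjusted p = 4.4e-04; edgeR adjusted p = 1.00). ITGAV stood at 104, 145 and 228 CPM and at 421, 154 and 245 CPM in the same libraries, so within a line both genes are set against the same control. TIAM1, an activator of the GTPase RAC1, stood at 21.7 CPM in the CMM12 control and had 2 and 4 counts in its KO libraries, against 11.8, 10.9 and 32.5 CPM in CMM2 (DESeq2 adjusted p = 7.7e-07 in CMM12; edgeR adjusted p = 0.34).

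Of 46 other adaptors, edgeR called 7 higher and 11 lower in CMM12, beside the same 14.6% and 11.2% (median log2 fold change 0.03). PARVB, the paralog of PARVA, was lower, at 137, 157 and 123 CPM in CMM2 and 16.1, 37.0 and 31.2 CPM in CMM12 (log2 fold change −2.38, SE 0.26, edgeR adjusted p = 0.0017), opposite to PARVA. TGFB1I1, a paralog of PXN also called Hic-5, was lower like PXN (−1.82, SE 0.17, edgeR adjusted p = 0.0011), and EVL, which extends actin filaments, was higher (3.59, SE 0.42, edgeR adjusted p = 0.0020). Of 23 kinases and GTPases, 2 were higher and 2 lower, beside 25.8% of all genes called in either direction (median log2 fold change 0.11), with the SRC-family kinases again split: FYN was higher (1.89, SE 0.29, edgeR adjusted p = 0.0048) and LYN lower (−1.48, SE 0.18, edgeR adjusted p = 0.0023). CSK, the kinase that holds SRC inactive, was higher together with SRC (0.82, SE 0.17, edgeR adjusted p = 0.013). Of 17 membrane partners, 3 were higher and 2 lower, also beside 25.8% (median log2 fold change 0.14). The 3 higher include PDPN, the targeted gene, at 20.2, 5.59 and 5.58 CPM in CMM2 and 87.8, 15.2 and 9.98 CPM in CMM12. THY1, a ligand of integrins, was at 0 counts in CMM2 and 166 to 450 CPM in CMM12. The tetraspanin CD63 was lower (−0.73, SE 0.16, edgeR adjusted p = 0.017). In the KO comparisons edgeR called 0 genes of these 4 lists. In CMM2 DESeq2 called 0 of them as well, beside 0.0489% of all genes. Across lines it called FN1, beside 0.0733% of all genes. In CMM12 it called FN1, FBN1 and TIAM1, beside 0.367%, and in the difference of the KO effects FBN1 and TIAM1, beside 0.179%. PDPN, which DESeq2 also called, is the targeted gene, so its call is no finding about the list.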

How the data were processed

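RNA of 6 libraries was sequenced, and the alignment and quantification tools RSEM 1.3.3 and STAR 2.7.3a and the genome build CanFam3.1 are listed in the submitters' processing notes. Per the file headers, the authors deposited unscaled expected counts of each gene and, in a second table, TPM values scaled for length within a library. No source used here states whether counting used strand, and antisense partners or near-identical copies cannot be told apart. Counts were rounded, which changed 3.22% to 3.63% of the values. Groups came from titles and genotypes. Libraries of the same line all differed by more than sampling noise, at 13.9 to 56.8 chi-square units per degree of freedom.

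Tests used edgeR 4.0.16 under R 4.3.3 (glmQLFit and glmQLFTest, TMM factors, filterByExpr on the 4 groups, Benjamini-Hochberg over 12270 genes). Lines, and KO across lines, came from an additive model of line and genotype (3 residual degrees of freedom). KO within a line and the difference of KO effects came from 4 group means (2 residual degrees of freedom), where lone controls, and KO libraries left alone by an omission, are assumed to vary like the KO pairs. Standard errors are the absolute log2 fold change over the square root of F.

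Members, gene lists and marker lists were chosen with earlier results of these data known. Library values are given for members called in any comparison by edgeR or DESeq2, for the 5 largest differences in each KO comparison and the 8 largest between lines among members with a mean of 1 CPM and libraries on one side, and for the 10 with the highest mean TPM. Other members are given by range or in comparison with these. List genes are named only if called, at most 3 per list and comparison. Alternatives were DESeq2 1.42.0, median-of-ratios factors, other filters, other forms of the fit, limma 3.58.1 on log2(TPM + 1) and log2(TPM + 0.1), the replicate block and leaving out each library. Adjusted p-values that DESeq2 gave as NA stayed NA.

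Same-numbered KO libraries deviated from their group means with a correlation of 0.057 over all genes, so the numbers were not taken to pair libraries.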

Additional observations from a re-analysis of the deposited data

Results flagged for a closer look

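For 5 of 37 members, beside 21.2% of all genes, both KO libraries of one line lay above their control and both of the other line below theirs, and edgeR's test of the difference (CMM12 minus CMM2, log2 scale) did not pass for any of them after adjustment. The differences were −0.98 for the collagen receptor ITGA10 (SE 0.63), −1.92 for ITGAV (SE 0.56), −1.82 for ITGB5 (SE 0.54), −0.79 for BCAR1 (SE 0.38) and 1.22 for PXN (SE 0.71), with unadjusted p of 0.17, 0.012, 0.013, 0.080 and 0.13 and adjusted p of 1.00 throughout. BCAR1 stood at 208, 229 and 266 CPM in CMM2 and 252, 152 and 195 CPM in CMM12. For TNS3 DESeq2's test of the difference passed (log2 difference 9.17, adjusted p = 0.0061), a model-dependent value with 0 counts in both CMM2 KO libraries and 77 and 168 in those of CMM12. The cause of these differences was not tested.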

How the results depend on the processing

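Between the lines, edgeR called 13 of 37 members, beside 3170 of 12270 genes, and DESeq2 17, beside 3951 genes. With limma on log2(TPM + 1) and log2(TPM + 0.1) there were 9 and 11 of 34 members, beside 2938 and 3019 of 12300 genes. The other fits and filters gave 10 to 16 members, beside 2425 to 3524 genes. Without a low-count filter this was 16 of 40 members, beside 3507 of 16601 genes. KO libraries only, where fewer samples are fitted, gave 6 of 33 members, beside 1884 of 11474 genes. Leaving out 1 library gave 5 to 14, with 5 without the CMM12 control (1717 of 12111 genes called in all) and 6 without the CMM2 control (1680 of 12257). Like the fit of KO libraries only, these omissions of a control take the line difference from the KO libraries alone. There were 7 without CMM2 KO 1 (1499 of 12231) or CMM12 KO 2 (1690 of 12070). With the replicate block there were 10, without PARVA, PXN and SRC, and the block called 0 across lines, where it could also be fitted. The numbers did not pair the libraries. ITGA2, ITGA10, ITGB7 and TLN1 were called in all 17 alternatives. Across lines the 0 of edgeR became 1 (NEDD9) with DESeq2 and 1 (NEDD9) without a low-count filter. DESeq2 also called 1 member (TNS3) in CMM2 and 1 (TNS3) in the difference of the lines, and edgeR without a filter called 1 (ITGB4) in CMM12; the cause was not tested. DESeq2 was not rerun with libraries left out. All other alternatives of the KO comparisons, leaving out each library included (0 to 0), gave 0. Of 558 single-gene recomputations 477 kept direction and side of the threshold, 56 lost the call, 25 gained it and 0 reversed. The 477 include results that were not called and stayed so, among them most of the KO recomputations. Only the members that edgeR called between the lines could lose a call. Losses were most frequent for PXN (10 of 17 alternatives), ITGB8 (9 of 17), and PARVA and PTK2 (8 of 17 each). Leaving out a line's own control leaves no KO comparison there and was not run. Depth limits values under 0.259 to 0.294 CPM, which is 3 counts, and each KO comparison within a line rests on 1 control.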

Other observations

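Ratios of TPM between close relatives among the members are given here per library with no test, and not all of them separated the lines. TLN1 stood above TLN2 by 41.9, 35.6 and 56.3 times in CMM2 (control, KO 1, KO 2) and by 12.7, 16.2 and 12.4 times in CMM12, so the ranges did not overlap. ACTN1 exceeded ACTN4 by 2.81 to 2.90 times in CMM2 and by 1.52, 2.24 and 2.15 times in CMM12, with the CMM12 control the lowest of the 6. ITGA5 exceeded ITGAV by 5.48, 5.17 and 4.36 times in CMM2 and by 1.45, 2.80 and 2.59 times in CMM12, where the KO libraries lay between the control and CMM2. TNS2 exceeded TNS1 by 1.55, 1.25 and 1.29 times in CMM2 and by 1.70, 1.65 and 1.52 times in CMM12, so the lines overlapped. ITGB3 exceeded ITGB5 by 8.18, 3.20 and 5.95 times in CMM2 and by 2.43 and 1.96 times in the control and KO 1 of CMM12, with KO 2 just under the lowest CMM2 library.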
